A study of Epimedium pubescens with 12 samples.

Results

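The change of phosphorus-deficient leaves with time was examined by comparing small RNA libraries taken after 90 days (90d) without phosphate with libraries taken after 30 days (30d). The comparison used 6 of the 12 libraries of the series, 3 of 90d -P and 3 of 30d -P, and covered all 220 miRNAs of the deposited table. The plants were 1-year-old seedlings of the medicinal herb E. pubescens (Epimedium pubescens), kept in pots of sand and perlite. Both groups received a nutrient solution with 0 mmol/L inorganic phosphate (-P) and differed in the length of the treatment and in age, so that time without phosphate and plant age cannot be told apart within this pair of groups. The 6 other libraries came from leaves given 1 mmol/L phosphate (+P) for 30d or 90d, 3 libraries at each time, and served only to show how supplied leaves changed over the same period. The methods of the study describe visible damage of the deficient plants at 90d and none at 30d. The methods give a number of seedlings per replication of the treatment, but how many of them went into a library is not stated there.

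Plant miRNAs are short RNAs that guide an Argonaute protein to matching transcripts, which are then cut or less translated. In the phosphate starvation response known from Arabidopsis, miR399 is made when phosphate is scarce and cuts the transcript of PHO2, a ubiquitin-conjugating enzyme that limits phosphate uptake and root-to-shoot transport. Other conserved families act on leaf form (miR166, miR396, miR319), on the passage from juvenile to adult growth (miR156, miR172), on auxin and gibberellin pathways (miR160, miR159) and on sulfate and copper use (miR395, miR398). Of the 220 miRNAs, 22 were known (prefix aqc) and 198 were predicted from hairpins by the authors and carry only a running number (novel_N). A predicted miRNA has no known family or role in the sources used here unless one is stated.

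The study pairs 3 predicted miRNAs with target genes for this comparison, and their forward qPCR primers are shown because they are the only sequences at hand for miRNAs on which the comparison turns. The primers are DNA, written 5′ to 3′ as in the supplement of the study, and which bases belong to the mature miRNA is not stated there, so that no base is capitalised.
novel_188: cgccatgttgtcctcttgcttatc
novel_196: ccgtttcattgtctgttctgccc
novel_269: cgcgctttctttgcaggttttgat
The primers of novel_188 and novel_269 are 24 bases long and that of novel_196 is 23. The study pairs novel_188 with an interactor of ROP GTPases, which are switches of cell polarity. It pairs novel_196 with MYB transcription factors. It pairs novel_269 with genes of a cellulose synthase subunit, a secondary wall acyltransferase, methionine synthesis and auxin efflux. The study paired them by predicted complementarity and removed targets that changed in the same direction as the miRNA, so that the pairs were chosen on these samples. By qPCR of selected miRNAs and target genes, the study reports opposite changes of miRNA and target that matched its sequencing. Target transcripts were not analysed here.

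Total miRNA counts were 533190, 766082 and 702029 in replicates A, B and C of 30d -P, and 1444541, 1317204 and 1022835 in 90d -P. Every 90d -P library was deeper than every 30d -P library, so that scarce miRNAs had more chance of being counted at 90d. Levels are in TPM, the counts of a miRNA scaled to a common library total with no term for length. A count of 0 allows up to 3.92 to 5.63 TPM in a 30d -P library and 2.08 to 2.93 TPM in a 90d -P library, from counting error alone. After a filter on low counts, 137 miRNAs were tested (16 known and 121 predicted), which held 99.99% of the counts of the 6 libraries. Replicate C of 30d -P stood apart from its group. Its log2 levels correlated with those of the other 30d -P libraries at r = 0.865 to 0.866 and with the 90d -P libraries at r = 0.890 to 0.927, across 137 miRNAs that are not independent. It lay nearer to the mean of the other age for 62.0% of the tested miRNAs, against 33.6% for 30d -P A and 46.7% for 30d -P B. Results that rest on it are therefore also given without it. That choice was made on the levels being compared, so that p-values without 30d -P C are descriptive only. Tissue identity could not be checked, because the table holds no marker of leaf cells. In whole leaves, fewer cells of a type and less RNA per cell cannot be told apart.

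No miRNA differed between 90d -P and 30d -P after adjustment for multiple testing. In the quasi-likelihood test of edgeR, 0 of 137 miRNAs (0%) had a Benjamini-Hochberg adjusted p under 0.05, the smallest adjusted p being 0.476, and 11 had an unadjusted p under 0.05. With DESeq2, 1 miRNA passed at the adjusted threshold when all 12 libraries were fitted and 11 passed when only the 6 -P libraries were fitted, while limma passed 0. Of the 11 from the 6 libraries, 7 were also among the miRNAs of the unadjusted rule below, and the others were aqc-miR398b, novel_20, novel_27 and novel_57. The rule stated by the study, an unadjusted p under 0.05 with at least a 2-fold change (called the unadjusted rule here), was met in edgeR by 11 of the 137 miRNAs (8.03%). Of these, 4 were higher at 90d (2.92%) and 7 were lower (5.11%). The split depended on the scaling, with 4 higher and 12 lower under TMMwsp and 8 higher and 5 lower under library totals without aqc-miR166e. All 11 were predicted miRNAs, and 0 of the 16 tested known miRNAs met the rule. In supplied leaves, 36 of the same 137 miRNAs (26.3%) met the unadjusted rule between 90d +P and 30d +P, among them 6 of the 16 known ones. This count is given for TMM scaling only, with factors of 0.932 to 1.85 at 30d +P and 0.688 to 0.835 at 90d +P. Of the 36, 18 were higher at 90d, whereas by TPM alone 13 of the 137 lay higher without overlap and 29 lower.

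**Figure D1:**
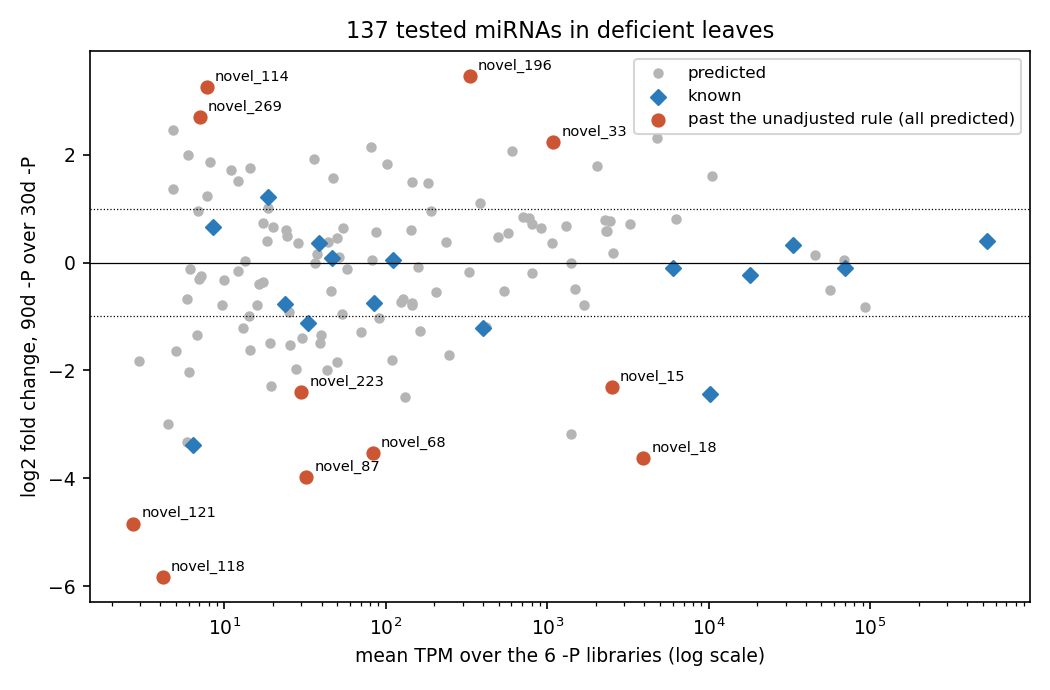
Each point is 1 of the 137 tested miRNAs, with its mean level over the 6 -P libraries (TPM, log scale) against its log2 fold change of 90d -P over 30d -P from edgeR. Dotted lines mark a 2-fold change, the 11 miRNAs past the unadjusted rule are named, and the fitted values of novel_118 and novel_121, which had 0 counts at 90d, are not measured folds.

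The miRNAs of phosphate and nutrient responses were considered first, of which 7 were in the table and 4 were tested. Of these 4, 0 met the unadjusted rule, against 11 of all 137 miRNAs (8.03%), so that 4 members are too few to set them apart. Their median log2 fold change was 0.07, against -0.08 over all 137 miRNAs. The level of aqc-miR399 was 9.38, 19.6 and 4.27 TPM in replicates A, B and C of 30d -P, from 5, 15 and 3 counts. It was 22.8, 20.5 and 35.2 TPM in 90d -P, from 33, 27 and 36 counts. In TPM the lowest 90d -P value exceeded the highest 30d -P value, although 90d -P B exceeded 30d -P B only slightly. With the TMM factors of the fit, 0.793 for 30d -P B and 0.894 for 90d -P B, 30d -P B lay above 90d -P B. In edgeR the log2 fold change came to 1.22 (SE 0.99), at an unadjusted p of 0.240 and an edgeR adjusted p of 0.686. Without 30d -P B the log2 fold change was 2.40 with an unadjusted p of 0.0453. As 30d -P B was the 30d library nearest to 90d, leaving it out had to widen the gap. This p-value is therefore descriptive only and no further evidence.

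In supplied leaves the same miRNA went from 3.48, 7.89 and 6.82 TPM at 30d, from 2, 3 and 10 counts, to 0 counts in all 3 libraries at 90d. The values of 30d +P A and B did not exceed what a count of 0 allows in those libraries, 5.22 and 7.89 TPM. The difference between the changes of deficient and supplied leaves (the interaction) was 6.52 on the log2 scale, a fitted value that depends on the 0 counts, with an unadjusted p of 0.00387 and an edgeR adjusted p of 0.530. It was the smallest interaction p of the 137 miRNAs. Thus the TPM of aqc-miR399 lay higher at 90d in deficient leaves and lower at 90d in supplied leaves, without passing the adjusted test. In deficient leaves the separation depended on the scaling.

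The miR398 family targets copper/zinc superoxide dismutases in Arabidopsis, enzymes that remove superoxide. The more abundant member, aqc-miR398b, was at 3723, 8502 and 39337 TPM in 30d -P A, B and C and at 2626, 1641 and 5373 TPM in 90d -P. The highest value was in 30d -P C, and 90d -P C lay above 30d -P A, so that the groups overlapped. Fitted in edgeR, 90d -P over 30d -P was -2.43 on the log2 scale (SE 1.23), at an unadjusted p of 0.0682 and an edgeR adjusted p of 0.519. Without 30d -P C the log2 fold change was -1.01, with an unadjusted p of 0.422. It was among the 11 miRNAs that DESeq2 called on the 6 libraries, with an adjusted p of 0.0493. The family as a whole held 1.73% ± 1.94 (SD, n = 3) of the counts at 30d -P and 0.333% ± 0.197 (SD, n = 3) at 90d -P, and in 30d -P C alone it held 3.96%.

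The scarcer aqc-miR398a ranged from 15 to 224 TPM at 30d -P and from 30.4 to 183 TPM at 90d -P, with no difference beyond this spread. The level of aqc-miR395b, whose family acts on ATP sulfurylase of sulfate assimilation, ranged from 11.7 to 80.6 TPM at 30d -P and from 22.5 to 75.9 TPM at 90d -P. The log2 fold changes of these miRNAs were 0.05 (SE 1.28) and 0.09 (SE 1.09), and under other scalings the sign turned for aqc-miR398a in 2 of 4 and for aqc-miR395b in 3 of 4. The miR169 family, which targets NF-YA factors, was almost uncounted. Over the 6 -P libraries, aqc-miR169a had 1 count, aqc-miR169b had 7 and aqc-miR169c had 0.

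Among the phase change miRNAs, 4 were in the table and only aqc-miR172a was tested. Its family targets AP2-like factors and promotes adult growth in Arabidopsis. The level was 7.50, 26.1 and 1.42 TPM in 30d -P A, B and C and 1.38, 0 and 1.96 TPM in 90d -P. The pooled counts were 25 at 30d -P and 4 at 90d -P, and 30d -P C lay within the 90d -P values. On the log2 scale 90d -P differed from 30d -P by -3.38 (SE 1.59), at an unadjusted p of 0.0525 and an edgeR adjusted p of 0.481. It was -1.35 without 30d -P B, which held most of the counts, and the unadjusted p was then 0.423. Without 30d -P C it was -3.91 at an unadjusted p of 0.0309, and the unadjusted rule was met in 2 of the 6 fits without a library and in 5 of 13 other settings. In supplied leaves the log2 fold change was -3.47, and the interaction was 0.09 with an unadjusted p of 0.992.

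The partner family miR156 keeps shoots juvenile through SPL factors. Its only member, aqc-miR156b, was too scarce for the test, with 19 counts at 30d -P and 6 at 90d -P. Its levels of 11.3, 6.53 and 11.4 TPM at 30d -P all lay above the 2.08, 0 and 2.93 TPM at 90d -P. At such counts the values at 90d -P are near the limit that a count of 0 allows. In supplied leaves aqc-miR156b was also lower at 90d without overlap. It went there from 6.96, 2.63 and 3.41 TPM, from 4, 1 and 5 counts, to 0 in each library. The remaining members, aqc-miR172b and aqc-miR535, had 1 count and 0 counts over the 6 -P libraries.

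The leaf polarity and growth families had 8 members, all tested, of which 0 met the unadjusted rule, against 11 of all 137 (8.03%). At that share, 8 members are too few for a count of 0 to set these families apart. Their median log2 fold change was -0.17, against -0.08 over all 137. The miR166 family targets class III HD-ZIP factors, which set the upper side of the leaf, and it dominated every library. The level of aqc-miR166e was 387631, 529609 and 500089 TPM in 30d -P A, B and C and 648510.5, 529087 and 588947 TPM in 90d -P. The lowest 90d -P value lay just under the highest 30d -P value, so that the groups overlapped. The 90d -P mean was higher by 0.40 (SE 0.45) on the log2 scale, at an edgeR adjusted p of 0.701. The members aqc-miR166a (-0.24, SE 0.62) and aqc-miR166c (-0.10, SE 0.65) had log2 fold changes within their errors, and that of aqc-miR166c turned positive under 1 of 4 other scalings. Members of a family can share reads, so that the split between them is uncertain.

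The miR396 family restrains growth-regulating factors of leaf cell division. The level of aqc-miR396b was 33572, 46213 and 11399.8 TPM in 30d -P A, B and C and 29265, 37794 and 40924 TPM in 90d -P. The lowest value was again in 30d -P C. The log2 fold changes were 0.32 (SE 0.60) for aqc-miR396b and -0.11 (SE 0.62) for aqc-miR396a, the latter turning positive under 1 of 4 other scalings. Without 30d -P B that of aqc-miR396b was 1.24, with an unadjusted p of 0.0429. As 30d -P B held the highest 30d -P value, leaving it out had to raise the fold change, so that this p-value is descriptive only. The family share was 3.68% ± 2.14 (SD, n = 3) at 30d -P and 4.16% ± 0.660 (SD, n = 3) at 90d -P.

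The level of aqc-miR319, which acts on TCP factors of leaf growth, was 849.6, 704 and 201 TPM in 30d -P A, B and C and 162, 314 and 170.1 TPM in 90d -P. Replicates A and B of 30d -P were above all 90d -P libraries and replicate C was not. In edgeR the log2 fold change came to -1.22 (SE 0.75), at an unadjusted p of 0.126 and an edgeR adjusted p of 0.587. Without 30d -P C it was -1.61 at an unadjusted p of 0.0530, and the unadjusted rule was met in 3 of 14 other settings, TMMwsp, DESeq2 on 12 libraries and edgeR on 6. The miR171 family targets GRAS factors of shoot meristems, and its members had log2 fold changes of -0.76 (SE 0.97) for aqc-miR171a and -0.75 (SE 0.90) for aqc-miR171f. Their levels ranged from 11.4 to 49.6 TPM and from 48.4 to 180.1 TPM at 30d -P, and from 11.4 to 21.5 TPM and from 39.5 to 85.8 TPM at 90d -P. Both ranges overlapped between the ages, and without 30d -P B both log2 fold changes were positive, at 0.28 and 0.34.

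Of the hormone pathway miRNAs, aqc-miR160b acts on auxin response factors and aqc-miR159 on GAMYB factors. The level of aqc-miR160b was 28.1, 57.4 and 15.7 TPM in 30d -P A, B and C and 45.7, 31.9 and 51.8 TPM in 90d -P. That of aqc-miR159 was 9.38, 3.92 and 8.55 TPM at 30d -P and 6.23, 12.9 and 9.78 TPM at 90d -P. Neither differed beyond the spread, with log2 fold changes of 0.35 (SE 0.80) and 0.65 (SE 0.95). The remaining known miRNA, aqc-miR477e, had 65.6, 74.4 and 0 TPM at 30d -P and 15.2, 22.0 and 21.5 TPM at 90d -P. The 0 in 30d -P C split that group, and the log2 fold change came to -1.12 (SE 1.16), against 0.25 in limma on log2(TPM + 1).

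**Figure D2:**
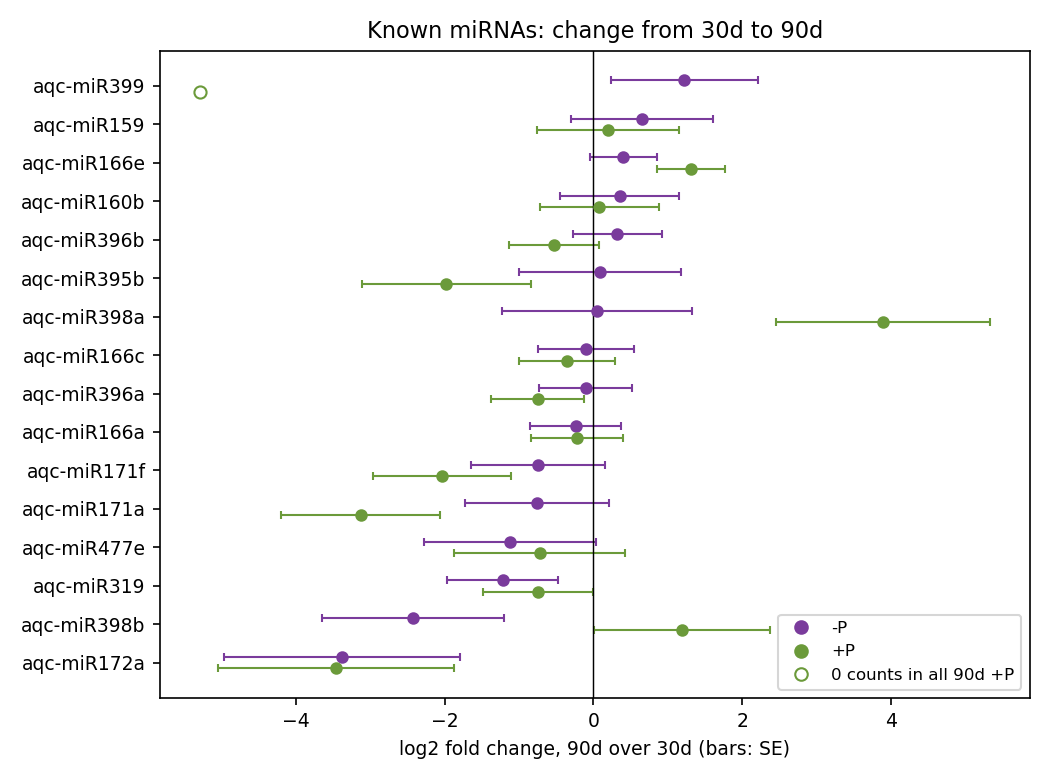
Log2 fold change of 90d over 30d from edgeR for the 16 tested known miRNAs in deficient (-P) and supplied (+P) leaves, with bars of 1 SE and an open circle where all 90d +P libraries had 0 counts. Under -P the changes run from -3.38 (aqc-miR172a) to 1.22 (aqc-miR399) and 0 pass the unadjusted rule, against 11 of all 137 tested miRNAs (8.03%).

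The predicted miRNAs that were higher at 90d are given next. The highest fold change was that of novel_196, paired by the study with MYB factors and shown above by its primer. Its level was 28.1, 74.4 and 59.8 TPM in 30d -P A, B and C and 957, 106 and 755 TPM in 90d -P. All 90d -P libraries lay above all 30d -P libraries, with 90d -P B much nearer to them than the other two. The log2 fold change came to 3.46 (SE 1.06), which is 11-fold, at an unadjusted p of 0.00601 and an edgeR adjusted p of 0.476. It met the unadjusted rule in all 14 other settings and in all 6 fits that left out a library, with log2 fold changes from 2.86 to 4.03 and adjusted p from 0.00207 to 0.661. In DESeq2 on 12 libraries it was the only call, with an adjusted p of 0.0217.

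In supplied leaves novel_196 went from 92.3, 26.3 and 126 TPM at 30d to 273, 892 and 185 TPM at 90d. Its log2 fold change there was 3.06, with an unadjusted p of 0.0112. The interaction was 0.40 (SE 1.37) with an unadjusted p of 0.774, so that no difference from supplied leaves was detected.

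The level of novel_33 was 203, 382 and 568 TPM in 30d -P A, B and C and 2232, 938 and 2174 TPM in 90d -P. The groups did not overlap. Fitted in edgeR, 90d -P over 30d -P was 2.24 on the log2 scale (SE 0.92), at an unadjusted p of 0.0296 and an edgeR adjusted p of 0.476. The unadjusted rule was no longer met without 30d -P A (1.81, at an unadjusted p of 0.0958) or without 30d -P B (2.42, at 0.0518). In supplied leaves its log2 fold change was -0.15, and the interaction was 2.39 with an unadjusted p of 0.0801.

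Both remaining higher miRNAs were scarce. The level of novel_269, whose paired genes include cell wall enzymes, was 1.88, 1.31 and 2.85 TPM in 30d -P A, B and C, from 4 counts in all. It was 13.2, 12.1 and 10.8 TPM in 90d -P, from 46 counts. The 90d -P replicates were close to each other and well above the limit of 2.93 TPM, whereas the 30d -P values lay under the limit that a count of 0 allows there. On the log2 scale 90d -P differed from 30d -P by 2.69 (SE 1.10), at an unadjusted p of 0.0286 and an edgeR adjusted p of 0.476. It met the unadjusted rule in 2 of the 6 fits that left out a library, and failed it without 30d -P A, 30d -P B, 90d -P A or 90d -P B, where the unadjusted p was 0.0913, 0.0588, 0.0527 and 0.0564. With no filter the unadjusted p was 0.0665, and in DESeq2 on 6 libraries it was 0.0715.

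In supplied leaves novel_269 went from 3.48, 18.4 and 15 TPM at 30d to 0.832, 5.79 and 2.20 TPM at 90d, a log2 fold change of -1.47. The interaction was 4.16 (SE 1.5), with an unadjusted p of 0.0155 and an edgeR adjusted p of 0.530. The level of novel_114 was 0, 2.61 and 1.42 TPM at 30d -P, from 3 counts, and 17.3, 14.4 and 10.8 TPM at 90d -P, from 55 counts. Again the groups did not overlap, and in edgeR the difference was 3.24 (SE 1.22) on the log2 scale, at an unadjusted p of 0.0190 that became 0.0659 without 30d -P A.

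Of the 7 lower miRNAs, novel_18 had the highest mean level, through 30d -P C alone, since novel_15 was the more abundant in each of the other 5 libraries. The level of novel_18 was 1253, 3529.6 and 17019 TPM in 30d -P A, B and C and 888, 83.5 and 785 TPM in 90d -P. The groups did not overlap in TPM, but 30d -P A was close to 90d -P A and 30d -P C far above both. With the TMM factors of the fit, 1.66 for 30d -P A and 0.90 for 90d -P A, 30d -P A lay below 90d -P A. In edgeR the log2 fold change came to -3.62 (SE 1.30), at an unadjusted p of 0.0149 and an edgeR adjusted p of 0.476. Without 30d -P C it was -2.12, with an unadjusted p of 0.109. In supplied leaves the level went from 1299, 3494 and 566 TPM to 196, 4493 and 2709 TPM, and the ages overlapped. The edgeR log2 fold change there was 1.22 (SE 1.19), at an unadjusted p of 0.323. The interaction was -4.84 (SE 1.75), with an unadjusted p of 0.0153 and an edgeR adjusted p of 0.530.

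The level of novel_15 was 4459.9, 6532 and 1553 TPM in 30d -P A, B and C and 1076, 259 and 1141 TPM in 90d -P. Replicate C of 30d -P was the nearest to the 90d -P libraries. Fitted in edgeR, 90d -P over 30d -P was -2.30 on the log2 scale (SE 0.91), at an unadjusted p of 0.0247 and an edgeR adjusted p of 0.476. It was -1.33 without 30d -P B and -1.90 without 90d -P B, at unadjusted p of 0.165 and 0.0841, so that the call rested on both. With library totals without aqc-miR166e it was -1.93, at an unadjusted p of 0.0635.

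The level of novel_68 was 39.4, 226 and 191 TPM in 30d -P A, B and C and 10.4, 13.7 and 17.6 TPM in 90d -P. The 90d -P replicates lay close together, and the spread was within 30d -P. On the log2 scale 90d -P differed from 30d -P by -3.53 (SE 1.31), at an unadjusted p of 0.0182 and an edgeR adjusted p of 0.476. Only without 30d -P B was the unadjusted rule not met (-2.89, at an unadjusted p of 0.0597), and all 14 other settings met it.

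The level of novel_87 was 35.6, 96.6 and 49.9 TPM at 30d -P and 1.38, 6.83 and 2.93 TPM at 90d -P, the latter from 14 counts. In edgeR the log2 fold change came to -3.98 (SE 1.66), at an unadjusted p of 0.0313 and an edgeR adjusted p of 0.476. In supplied leaves it was -3.47, at an unadjusted p of 0.0491, and the interaction of -0.51 had an unadjusted p of 0.803. The level of novel_223 was 30.0, 58.7 and 62.7 TPM at 30d -P and 4.85, 12.1 and 10.8 TPM at 90d -P, a log2 fold change of -2.41 (SE 1.08) at an unadjusted p of 0.0433 and an edgeR adjusted p of 0.481. Neither miRNA overlapped between the ages. The rule was met in 3 of 6 fits with a library left out for novel_87, failing without 30d -P B, 90d -P A or 90d -P C, where the unadjusted p was 0.10, 0.0675 and 0.0591. For novel_223 it was met in 1 of 6, the one without 30d -P A, and the unadjusted p ranged up to 0.106 in the others. Scaling to library totals without aqc-miR166e gave novel_223 an unadjusted p of 0.0679.

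The remaining lower miRNAs, novel_118 and novel_121, had 0 counts in all 90d -P libraries. The level of novel_118 was 13.1, 11.7 and 0 TPM in 30d -P A, B and C, from 16 counts. Its pooled 30d level was 10.1 times the limit that 3 counts set over the pooled 90d -P libraries. The level of novel_121 was 15, 1.31 and 0 TPM, from 9 counts, and its pooled 30d level was 5.67 times that limit. These ratios leave out the counting error of the 30d counts, so that they are not lower bounds of the fold change. Of the 9 counts of novel_121, 8 were in 30d -P A. Without that library its pooled 30d level of 0.681 TPM lay under the limit of 0.793 TPM, so that the ratio rested on it. The ratio of novel_118 was 6.24 to 15.5 with any single library left out, lowest without 90d -P A and highest without 30d -P C. Both were at 0 in 30d -P C as well, so that the ages overlapped. The unadjusted p was 0.0162 for novel_118 and 0.0461 for novel_121. In limma on log2(TPM + 1) neither met the rule, with p of 0.0507 and 0.222. DESeq2 on 12 libraries gave novel_121 an unadjusted p of 0.0556 and the newer edgeR method 0.123, and novel_121 met it in only 1 of the 6 fits without a library, the one without 30d -P C.

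**Figure D3:**
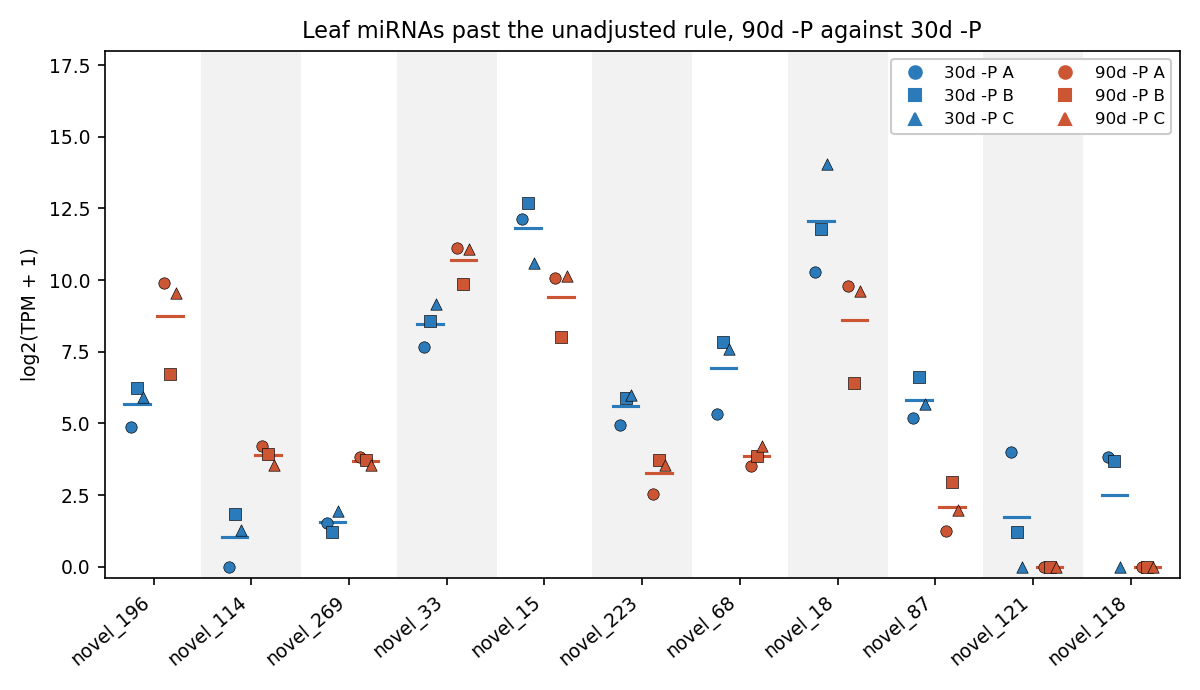
Level in each of the 6 -P libraries, as log2(TPM + 1), of the 11 miRNAs past the unadjusted rule, ordered by fold change, with a dash for the mean of the 3 libraries of an age. In TPM the ages do not overlap for 9 of the 11, of which novel_18 overlaps once the TMM factors are applied. The other miRNAs, novel_118 and novel_121, are at 0 in 30d -P C and in all 90d -P libraries.

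The groups were also compared without a model, by asking whether all 3 libraries of an age lay above all 3 of the other in TPM. No TMM factor enters the TPM, and the separations of aqc-miR399 and novel_18 did not hold with those factors. Among the 137 tested miRNAs, 19 lay higher at 90d -P (13.9%) and 11 lay lower (8.03%). The 9 non-overlapping miRNAs of the unadjusted rule are among these 30. Of the 19 higher ones, 6 were also higher in supplied leaves, 11 overlapped there, and 2 were lower there, aqc-miR399 and novel_94. Of the 11 lower ones, 10 overlapped in supplied leaves and 1, novel_1, was also lower. Of all 137, 13 lay higher and 29 lay lower in supplied leaves. An overlap there does not mean that the level stayed the same. For the lower miRNAs past the unadjusted rule, the fitted log2 fold changes in supplied leaves were -3.47 (novel_87), -2.45 (novel_68), -1.65 (novel_15) and -0.67 (novel_223), against 1.22 (novel_18). Several abundant miRNAs were in these lists without meeting the rule.

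The level of novel_5 was 2084, 1871 and 12529 TPM in 30d -P A, B and C and 14984, 15828 and 16024 TPM in 90d -P. That of novel_12 was 501, 623 and 3991 TPM at 30d -P and 5525, 11187 and 6765 TPM at 90d -P, and that of novel_20 was 561, 724 and 1529.9 TPM and 2971, 2199 and 4219 TPM. In each of them 30d -P C was the 30d library nearest to the 90d level. The log2 fold changes were 1.61 (SE 0.91), 2.30 (SE 1.11) and 1.79 (SE 0.87), with unadjusted p of 0.101, 0.0583 and 0.0597. Without 30d -P C they were 3.17, 3.93 and 2.35, with unadjusted p of 0.00581, 0.00880 and 0.0396 and an edgeR adjusted p of 0.274 for each. As 30d -P C was the nearest to 90d in each, leaving it out had to widen the gap, so that these p-values are no further evidence. These miRNAs and novel_57 below were singled out after their values were seen, except novel_5, which is among the 10 most abundant.

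In the opposite direction, novel_57 was at 444, 184 and 58.4 TPM in 30d -P A, B and C and at 25.6, 16.7 and 57.7 TPM in 90d -P. The gap between 30d -P C and 90d -P C was under 1 TPM. Fitted in edgeR, 90d -P over 30d -P was -2.48 on the log2 scale (SE 1.16), at an unadjusted p of 0.0510 and an edgeR adjusted p of 0.481. It was called by DESeq2 on the 6 libraries with an adjusted p of 0.0162.

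The makeup of the libraries was described by 4 measures. The 10 miRNAs with the highest mean TPM over the 6 libraries were aqc-miR166e, aqc-miR166c, aqc-miR166a, aqc-miR396b, aqc-miR398b and novel_1 to novel_5. The 10 most abundant miRNAs of a library held 94.5% ± 0.931 (SD, n = 3) of the counts at 30d -P and 94.0% ± 1.36 (SD, n = 3) at 90d -P, and 7 or 8 miRNAs made up 90% of the counts in every library. Without aqc-miR166e in the total, the differences in these measures between the ages were -4.09 percentage points and 4.33 miRNAs. Known miRNAs held 49.9%, 69.3% and 67.5% of the counts in 30d -P A, B and C and 74.7%, 69.5% and 70.5% in 90d -P. The lowest 90d -P share exceeded the highest 30d -P share by little, and the exact two-sided permutation p was 0.1, the smallest that 3 against 3 allows, or 0.4 after adjustment over 4 measures. The share of aqc-miR166e was 47.2% ± 7.49 (SD, n = 3) at 30d -P and 58.9% ± 5.97 (SD, n = 3) at 90d -P (exact two-sided permutation p 0.2, adjusted 0.4). Without aqc-miR166e in the total, the difference in the share of known miRNAs was 1.19 percentage points in place of 9.33. It was 3.17 points when 30d -P A was left out.

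The most abundant predicted miRNA, novel_1, was at 161972, 111843 and 99363 TPM in 30d -P A, B and C and at 47909, 71855 and 62551 TPM in 90d -P. All 90d -P libraries lay below all 30d -P libraries. On the log2 scale 90d -P differed from 30d -P by -0.82 (SE 0.45), at an unadjusted p of 0.0897 and an edgeR adjusted p of 0.585, and it met the unadjusted rule in 6 of 14 other settings. In supplied leaves novel_1 went from 133813, 158926 and 96372 TPM at 30d to 58247, 44769.7 and 90481 TPM at 90d, so that the TPM values were lower at 90d there too, without overlap. The fitted log2 fold change in supplied leaves was only -0.18, after TMM factors of 0.932 to 1.85 at 30d +P and 0.688 to 0.835 at 90d +P. The interaction of -0.65 had an unadjusted p of 0.324. The levels of novel_2, novel_3 and novel_4 overlapped between the ages, with log2 fold changes of 0.04 (SE 0.55), -0.51 (SE 0.60) and 0.13 (SE 0.65), of which the first turned negative under 3 of 4 other scalings and the last under 1.

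**Figure D4:**
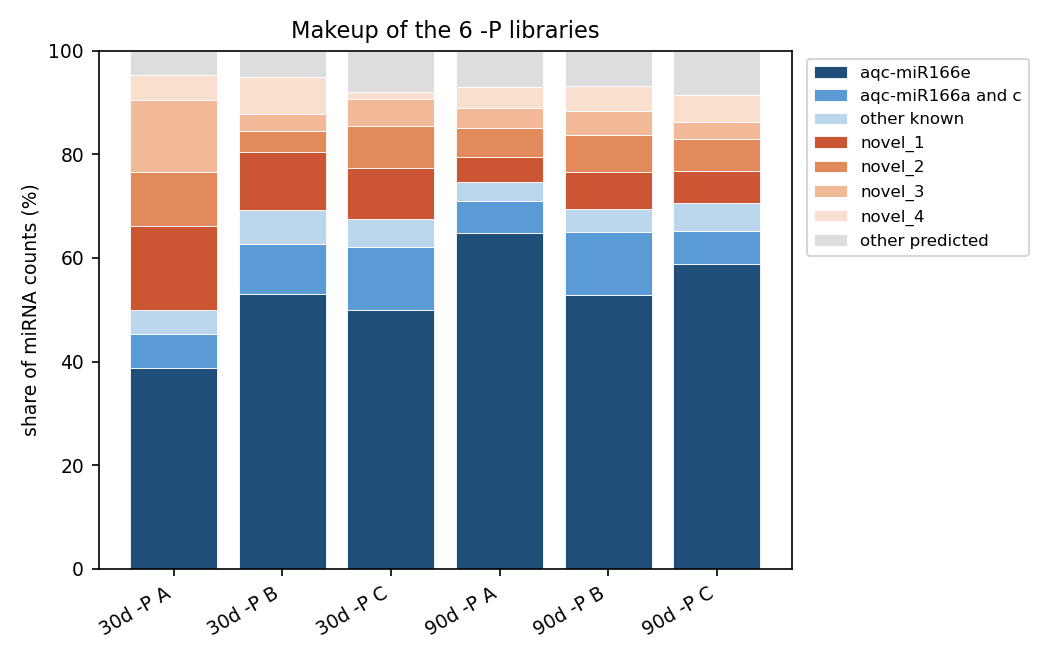
Share of all miRNA counts (%) in each of the 6 -P libraries held by aqc-miR166e, the other miR166 members, other known miRNAs, novel_1 to novel_4 and all other predicted miRNAs. The share of aqc-miR166e runs from 38.8% in 30d -P A to 64.9% in 90d -P A.

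Some miRNAs too scarce for the test were counted at a single age. Those with a count in all 90d -P libraries and none at 30d -P were novel_137, novel_298, novel_299 and novel_167, with 17, 12, 11 and 6 counts. Pooled, novel_137 and novel_298 were at 3.0 and 2.12 times the limit that 3 counts set over the pooled 30d -P libraries. These ratios leave out the counting error of the 90d counts. They fell to 1.85 and 1.31 without 30d -P B, to 1.95 and 1.37 without 30d -P C and to 1.93 and 1.45 without 90d -P C. The pooled level of novel_299, 1.94 times the limit, lay under it without 90d -P C. That of novel_167, 1.06 times the limit, lay under it without 90d -P C or any 30d -P library. No miRNA had a count in all 30d -P libraries and 0 in all of 90d -P, a demand harder to meet in the shallower 30d -P libraries. Others had counts in only part of the 30d -P libraries and 0 at 90d -P. Among them were novel_251, novel_201, novel_171, novel_144 and novel_212, with 58, 11, 9, 5 and 4 counts. The reverse held for novel_258, with 6 counts at 90d -P and 0 at 30d -P. The ROP-paired novel_188 was at 1.88, 0 and 0 TPM in 30d -P A, B and C, a single count, and at 13.8, 5.31 and 8.80 TPM in 90d -P, from 36 counts. The pooled ratio was 19.0, with an exact 95% interval from 3.21 to 773 that covers counting error only. In supplied leaves novel_188 was at 1.74, 0 and 0 TPM at 30d and 6.66, 2.48 and 0 TPM at 90d. Outside the naming rule, novel_111 had 104 counts in 30d -P C and 0 in each of the other 11 libraries.

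Whether deficient leaves changed differently from supplied leaves was tested by the interaction over all 12 libraries. The adjusted threshold was passed by 0 of 137 miRNAs (0%), with a smallest adjusted p of 0.530 in edgeR, and by 0 in DESeq2 and in limma. An unadjusted p under 0.05 was found for 7 (5.11%), namely aqc-miR399, novel_73, novel_18, novel_269, novel_83, novel_94 and novel_105. That count ranged from 6 to 19 over the alternatives, with 15 under library totals only, 13 with no filter and with the newer edgeR method, and 19 in DESeq2 on 12 libraries. Of these 7, novel_18 and novel_269 were among the 11 miRNAs of the unadjusted rule. Among the other 9, novel_33 and novel_114 had interactions of 2.39 and 3.21 with unadjusted p of 0.0801 and 0.0669, and those of the remaining 7 had unadjusted p of 0.150 to 0.803.

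**Figure D5:**
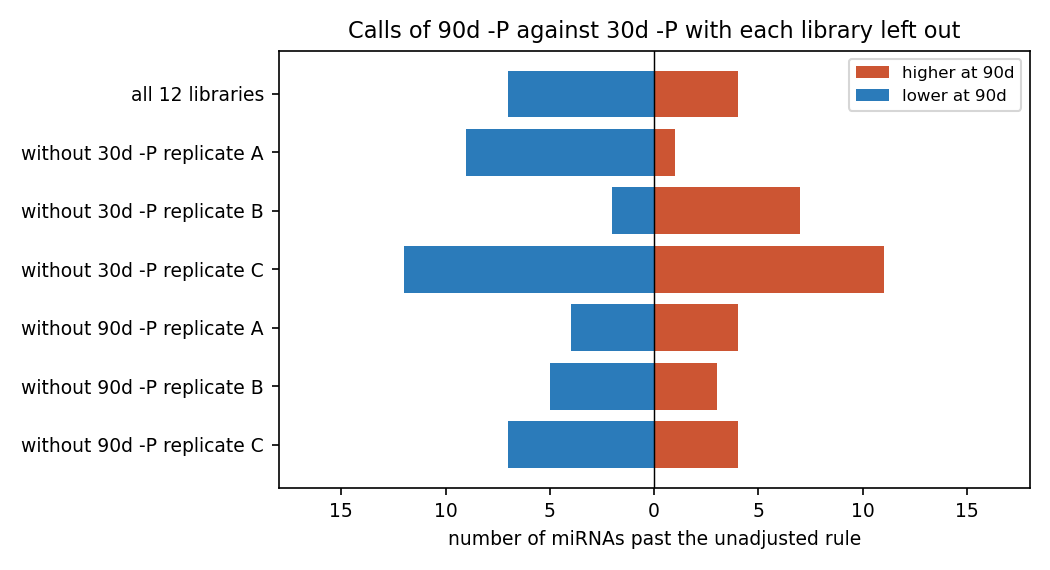
Number of miRNAs past the unadjusted rule in 90d -P against 30d -P, higher to the right and lower to the left, with all 12 libraries and with each -P library left out. The 137 tested miRNAs were the same in each fit, and the count runs from 8 to 23, highest without 30d -P C.

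The count of calls depended on single libraries of this comparison. Without 30d -P C, 23 miRNAs met the unadjusted rule, 11 higher and 12 lower, of which 9 were among the 11 named above, while the smallest adjusted p was 0.274. Without 30d -P B the count was 9, with 7 higher and 2 lower, and 4 of them were among the 11. Without 30d -P A, 10 met it, of which 1 was higher. The median log2 fold change of all 137 miRNAs was -0.08 with TMM scaling and ranged from -0.51 to 0.11 under the 4 other scalings, so that changes of this size carry no direction. Scarce miRNAs were measured less precisely, with a median SE of 1.37 on the log2 scale for the 24 miRNAs under 10 TPM and 0.689 for the 29 above 1000 TPM. Of the 11 past the rule, 4 were under 10 TPM and 3 above 1000 TPM.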

How the data were processed

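Small RNA of E. pubescens leaves was prepared with a NEBNext kit from the samples used for the transcriptome, and the labels gave the groups and replicate letters. The authors predicted miRNAs with miREvo and mirdeep2 and deposited a table of raw read counts for 220 miRNAs in 12 libraries. The submitters' processing notes name Bowtie and DESeq2 without versions, whereas the genome build and miRBase release were not given in the sources used here. Deposited TPM are counts scaled to a common total, without a length term. The authors' group means of counts were not used. Counts hold no molecular identifiers, so intervals and limits cover counting error only.

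Counts were tested in 1 model of 4 groups by edgeR 4.0.16 in R 4.3.3 (quasi-likelihood F test, older method), TMM scaling and filterByExpr at a minimum count of 10. The test was two-sided, with Benjamini-Hochberg adjustment over 137 miRNAs. The SE is the absolute log2 fold change over the square root of F. The common dispersion gave a biological coefficient of variation of 86.5%. The methods call the transcriptome replicates biological, but the labels do not say whether libraries were separate plants or pools, so p-values measure the spread between these samples. Shares were compared by exact permutation.

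Named miRNAs were all known ones, those past the unadjusted rule, the 10 most abundant, novel_188, novel_196 and novel_269, and those counted at 1 age only in all 3 libraries (up to 5 a side). The comparison, the lists and the rules were chosen with earlier results of these data known. Alternatives were RLE, TMMwsp, library totals with or without aqc-miR166e, no filter, a filter of 10 counts in 6 libraries, DESeq2 1.42.0 on 12 or 6 libraries, limma 3.58.1 on log2(TPM + 1) or log2(TPM + 10), the newer and the robust edgeR methods, edgeR on 6 libraries, a replicate block, and each -P library left out. Ratios to the limit of 3 counts with a library left out were added after seeing the data.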

Additional observations from a re-analysis of the deposited data

Results flagged for a closer look

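In 2 of the 137 tested miRNAs, every 90d library lay above every 30d library in deficient leaves and below every 30d library in supplied leaves, in TPM. Over all 137, 19 lay higher at 90d in deficient leaves and 29 lay lower at 90d in supplied leaves. With lists of that length, the count of 2 is no result by itself. For aqc-miR399 the interaction on the log2 scale was 6.52, with an unadjusted p of 0.00387 and an edgeR adjusted p of 0.530 (0.0730 to 0.710 over the alternatives). For novel_94 the interaction was 4.52, with an unadjusted p of 0.0296 and an edgeR adjusted p of 0.620. Its level was 1.88, 6.53 and 1.42 TPM in 30d -P A, B and C and 8.31, 9.11 and 21.5 TPM in 90d -P, against 6.96, 15.8 and 35.4 TPM in 30d +P and 0, 0.826 and 5.51 TPM in 90d +P. Both were scarce, and neither passed after adjustment. With the TMM factors, aqc-miR399 in 30d -P B lay above 90d -P B, and novel_94 in 90d +P C lay above 30d +P A.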

How the results depend on the processing

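Of the comparisons of 90d -P with 30d -P, 0 miRNAs passed the adjusted threshold in edgeR and limma in all settings, while DESeq2 called 1 on 12 libraries and 11 on 6. The 11 miRNAs of the unadjusted rule became 22 with no filter, 22 with DESeq2 on 12 libraries, 19 with DESeq2 on 6, 17 with limma on log2(TPM + 1) and 21 with edgeR on 6 libraries, and 8 to 23 with a library left out. The share of higher calls, 36.4% with TMM scaling, was 25.0% with TMMwsp and 61.5% with library totals without aqc-miR166e. The interaction passed 0 miRNAs in every setting in which it was run. Without aqc-miR166e, the difference in the share of the 10 most abundant miRNAs was -4.09 percentage points in place of -0.52, and that in the number of miRNAs for 90% of the counts was 4.33 in place of 0. Replicate letters did not pair the libraries (same-letter correlations of deviations -0.22, 0.05 and 0.10), and with the replicate block 12 miRNAs met the unadjusted rule, 8 of them shared (novel_15, novel_18 and novel_121 did not meet it), while 0 passed after adjustment. No named value changed direction past its threshold. Depth limits miRNAs under 10 TPM, and 30d -P C limits the 30d -P mean. The causes were not tested.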
